A study of Mus musculus with 6 samples.

Results

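The genes described are 8 transcription factor genes that mark the oral, incisor or molar fields of the embryonic jaw: Pitx1, Pax9, Barx1, Lhx6, Lhx8, Osr1, Osr2 and Nkx3-2. They were taken by gene symbol from the 21827 genes listed for each library, and each symbol stood on 1 row. All 8 reached 1 TPM in at least 3 of the 6 libraries and so entered the fit of 12152 genes.

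RNA was sequenced from the distal mandible, the tip of the lower jaw, of single mouse embryos at E10.75. By the labels, the 3 libraries labelled mutant are Msx1f/f, floxed on both copies, the 3 labelled control are Msx1f/+, floxed on 1 copy, and each of 3 litters gave 1 of each. Either label also gives Msx2f/f, the reporter allele Rosa26mTmG/+ and Hand2-Cre, so no group had Msx2 intact. Cre under Hand2 control acts only in cells that have expressed Hand2, and the tissue was taken as a piece with green fluorescence, so cells without Cre could be included.

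The deposited labels conflict with the targeted gene. Msx1, a homeobox gene of distal arch mesenchyme, was at 1.90, 2.61 and 1.99 TPM in 1 library of litters 1, 2 and 3, against 84.1, 78.8 and 73.3 TPM in the littermates. The lower-Msx1 library was labelled mutant in litter 1 and labelled control in litters 2 and 3, so Msx1 ran opposite to the label in 4 of the 6 libraries. Msx2 was at 4.22, 6.81 and 6.28 TPM in the lower-Msx1 libraries of litters 1, 2 and 3 and 9.62, 6.81 and 6.30 TPM in the littermates. The libraries keep their labels below. Within each litter, the library with Msx1 under 10 TPM (lower-Msx1) is set beside its littermate with Msx1 over 50 TPM (higher-Msx1) as a description, with no test. Tests come from the table that the authors deposited, where the log2 fold change of Msx1 is -5.19, and from a limma fit of the labels as deposited, where the difference of Msx1 was 1.41 ± 1.95 (SE; limma adjusted p = 0.887). The 2 sources therefore do not compare the same groups of libraries, and their signs are not to be set against each other. A positive value in the authors' table therefore has the sign opposite to Msx1.

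The tissue carried the markers of arch mesenchyme in every library. The 7 markers summed to 974 to 1057 TPM, and Hand2, a basic helix-loop-helix gene of the distal arch, ran from 210.0 to 261 TPM. The 9 epithelial markers summed to 145 to 163 TPM, the 5 endothelial markers to 67.4 to 80.7 TPM and the 6 muscle progenitor markers to 6.77 to 11.1 TPM. Neuronal, glial and macrophage markers summed to no more than 15.5, 5.31 and 6.61 TPM in any library. The neuronal sum includes Isl1, at 6.58 to 13.0 TPM, which is also counted below among factors of oral and dental epithelium. Red blood cell markers were uneven, with 20835 TPM in the lower-Msx1 library of litter 1 and 6405 to 9055 TPM in the other libraries. In pieces of tissue, fewer cells of a type and less RNA per cell cannot be told apart.

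Teeth form where oral epithelium, which secretes FGF and BMP ligands, instructs the neural crest mesenchyme beneath it. In the mouse, FGF8 from proximal epithelium maintains Barx1 in mesenchyme of the molar side, and Lhx6 and Lhx8 in that of the oral side. BMP4 in the distal, incisor-forming region instead maintains Msx1 and restricts Barx1. Pitx1 and Pax9 mark broader oral and dental territories, the odd-skipped genes Osr1 and Osr2 mark mesenchyme around the oral cavity, and Nkx3-2 marks the region of the jaw joint.

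The 8 genes spanned a wide range of levels, and the order was much the same in each library. In TPM, which are scaled for transcript length, the medians over the 6 libraries were 266 for Barx1, 134 for Pitx1, 64.2 for Osr1, 35.9 for Lhx8, 26.7 for Lhx6, 4.12 for Pax9, 1.86 for Nkx3-2 and 1.80 for Osr2. Barx1, Pitx1, Osr1 and Lhx8 followed each other with no overlap between the ranges of neighbours. Lhx8 and Lhx6 overlapped, with Lhx8 the higher in 5 libraries and Lhx6 in 1, and so did Nkx3-2 and Osr2, with Nkx3-2 the higher in 4 libraries and Osr2 in 2. The mean of Barx1 lay at percentile 97.0 of all tested genes, that of Pitx1 at 94.5, and those of Osr2 and Nkx3-2 at 14.1 and 12.3. Barx1, a marker of the molar side, was thus abundant in a piece labelled distal mandible, at a level whose range overlapped that of Hand2.

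**Figure D1:**
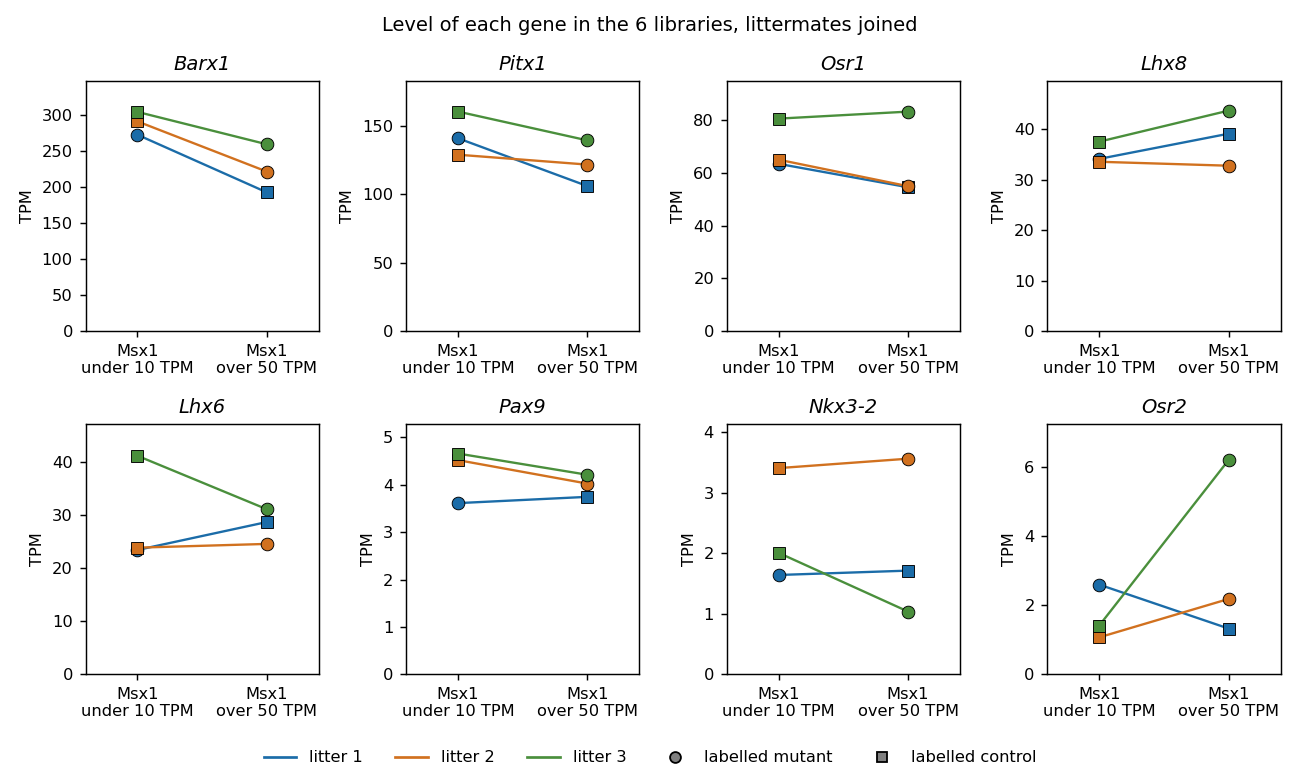
TPM of each gene (vertical axes, each starting at 0) in the libraries with Msx1 under 10 TPM (left) and over 50 TPM (right), with littermates joined, circles for libraries labelled mutant and squares for those labelled control. All 3 lower-Msx1 libraries sit above all 3 higher-Msx1 libraries for Barx1, between 273 and 305 TPM against 193 to 259.6 TPM, and for no other gene shown.

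Barx1, which encodes a homeodomain factor of molar-side arch mesenchyme (ENSMUSG00000021381, chromosome 13, 48662998 to 48666507, plus strand, GRCm38), was higher in the lower-Msx1 library of every litter. It was at 273 TPM in the lower-Msx1 library (labelled mutant) and 193 TPM in the higher-Msx1 library (labelled control) of litter 1. In litter 2 it was at 292 TPM in the lower-Msx1 library (labelled control) and 222 TPM in the higher-Msx1 library (labelled mutant). In litter 3 it was at 305 TPM in the lower-Msx1 library (labelled control) and 259.6 TPM in the higher-Msx1 library (labelled mutant). The lower-Msx1 libraries lay close together and the others were spread below them, with a gap of 13.3 TPM between the nearest values. The ratios of lower-Msx1 to higher-Msx1 library were 1.42, 1.31 and 1.17 in litters 1, 2 and 3. Of all tested genes, 4.36% likewise had all 3 lower-Msx1 libraries above all higher-Msx1 libraries, and 9.32% had no overlap in either direction. Barx1 was the 1 gene of the 8 with no overlap, and 1 of 8 is near that share.

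In the authors' deposited table the log2 value of Barx1 was 0.38 ± 0.14 (with its standard error; unadjusted p = 0.00871, adjusted p = 1.000), from a base mean of 1275 normalised counts. It was the single one of the 8 genes with an unadjusted p under 0.05 there, a threshold that 1.85% of genes with a p-value passed, and it stood at rank 99 by p. After adjustment none of the 8 was past 0.05, beside 14 of 14572 genes, or 0.0961%, in the authors' deposited table. The separation of Barx1 remained after median-of-ratios scaling, at 282, 292 and 291 scaled TPM in the lower-Msx1 libraries of litters 1, 2 and 3 and 185, 223 and 265 in the higher-Msx1 libraries. Red blood cell markers were at 20835, 9055 and 7075 TPM in the lower-Msx1 libraries and 6405, 7288 and 8096 TPM in the higher-Msx1 libraries. These markers were higher in the lower-Msx1 library of litters 1 and 2 and lower in that of litter 3. Any relation of these markers to Barx1 was not tested. The 7 mesenchyme markers summed to 974, 1027 and 1028 TPM in the lower-Msx1 libraries and 1037, 1057 and 1023 TPM in the higher-Msx1 libraries.

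Set against Hand2 in the same library, a ratio chosen after the values were seen, Barx1 was at 1.23, 1.39 and 1.17 times the TPM of Hand2 in the lower-Msx1 libraries of litters 1, 2 and 3. The same ratio was 0.763, 0.884 and 1.03 in the higher-Msx1 libraries. Barx1 TPM exceeded Hand2 TPM in all 3 lower-Msx1 libraries and in 1 of the 3 higher-Msx1 libraries, that of litter 3. Hand2 itself was at 223, 210.0 and 261 TPM in the lower-Msx1 libraries of litters 1, 2 and 3. In the higher-Msx1 libraries it was at 253, 251 and 253 TPM. The ratio therefore mixes changes of both genes, and a shift between jaw regions was not tested. The authors' deposited table had Hand2 at -0.13 ± 0.11 (with the table's standard error; unadjusted p = 0.251).

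The promoters of Barx1 and Lhx6 are shown because Barx1 separated the littermates and Lhx6 had a promoter with the TAATTG sequence. This sequence is a core bound by Msx and other homeodomains. TAATTG was searched on both strands (CAATTA on the other), as the only motif, in the bases before start sites in RefSeq promoters of GRCm38.p6. Promoters were given for 5 of the 8 genes, 7 in all. Those that annotated exons covered or interrupted were left out, and some others were cut where an exon began. Of those kept, Barx1 (212 bases), Lhx8 (151 bases), Pax9 and another start of Lhx6 (250 bases each) held 0 matches. The Lhx6 promoter shown was the only one with a match. Over all genes the sequence was in 7.17% of 32851 promoters, searched over the full 250 bases before the start. Barx1 is printed for chr13:48662786-48662997, plus strand, ending where the first annotated exon begins, and Lhx6 for chr2:36104061-36104310, minus strand, before 1 of its 3 starts, both 5′ to 3′ with the match in capitals.
Barx1: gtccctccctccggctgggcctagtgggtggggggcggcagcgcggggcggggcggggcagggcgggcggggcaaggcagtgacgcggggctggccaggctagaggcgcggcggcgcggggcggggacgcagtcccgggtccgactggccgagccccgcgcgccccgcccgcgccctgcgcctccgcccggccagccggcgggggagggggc
Lhx6: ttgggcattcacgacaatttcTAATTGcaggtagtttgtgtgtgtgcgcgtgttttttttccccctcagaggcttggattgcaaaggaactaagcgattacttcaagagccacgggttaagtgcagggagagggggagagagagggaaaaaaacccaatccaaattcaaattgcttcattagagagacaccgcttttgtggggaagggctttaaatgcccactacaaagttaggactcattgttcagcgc
The 212 bases of Barx1 shown are 85.4% G or C and hold no match, which says only that these letters are not in this window. The 250 bases of Lhx6 are 46.0% G or C and hold 1 match, 229 bases before the start. A match is not a binding site, and no binding was measured.

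Pitx1, a homeobox gene of the oral ectoderm and mandibular mesenchyme (chromosome 13, 55825051 to 55836192, GRCm38), also had the higher value in the lower-Msx1 library of each litter. It was at 141, 129 and 161 TPM in the lower-Msx1 libraries of litters 1 (labelled mutant), 2 and 3 (labelled control), and at 106, 122 and 139 TPM in the higher-Msx1 libraries. The values overlapped, because the higher-Msx1 library of litter 3 exceeded the lower-Msx1 library of litter 2. In the authors' deposited table Pitx1 stood at 0.23 ± 0.15 on the log2 scale (with the table's standard error; unadjusted p = 0.114). Barx1 and Pitx1 were the 2 of 8 genes with one direction in all litters, and both were higher. Of all tested genes 22.7% kept one direction in all 3 litters, so 2 of 8 is near that share. The ratio of Barx1 to Pitx1 TPM was 1.94, 2.26 and 1.90 in the lower-Msx1 libraries and 1.82, 1.82 and 1.86 in the higher-Msx1 libraries.

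**Figure D2:**
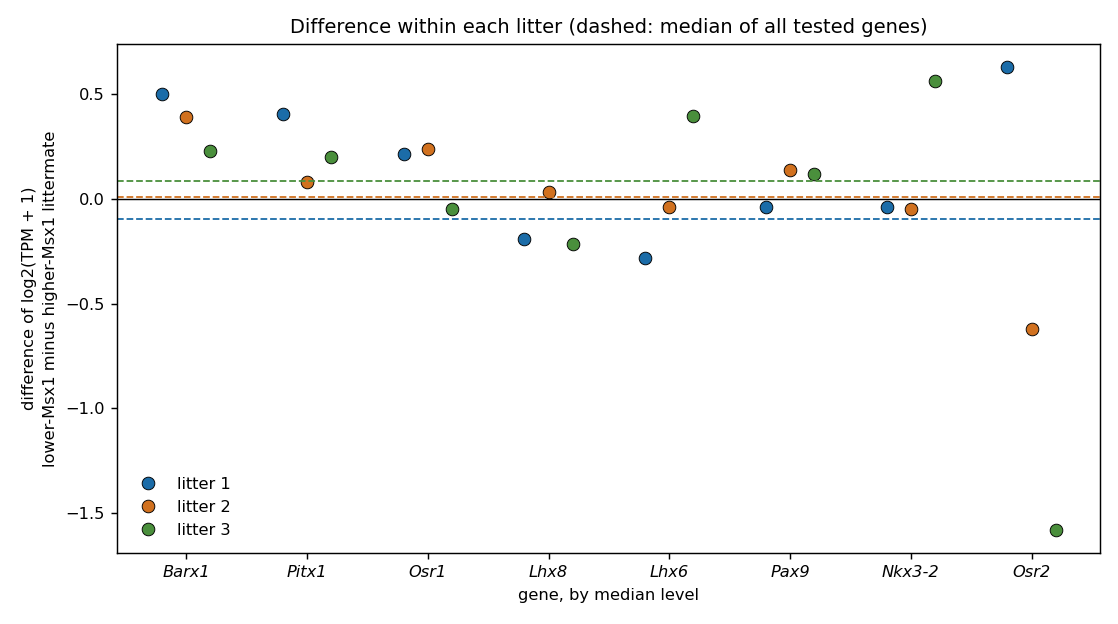
Difference of log2(TPM + 1), lower-Msx1 minus higher-Msx1 littermate (vertical axis), for each gene (horizontal axis, by median level) and litter (colour), with the median of all tested genes in that litter as a dashed line. Barx1 is above 0 in all litters at 0.50, 0.39 and 0.23, and Osr2 runs from 0.63 in litter 1 to -1.58 in litter 3.

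Lhx6 and Lhx8, LIM homeobox genes of the oral side of the arch that act together in mouse molar development, did not move with Msx1 in one direction. Lhx6 (chromosome 2, 36081953 to 36105408) was at 23.5, 23.9 and 41.3 TPM in the lower-Msx1 libraries of litters 1, 2 and 3 and 28.7, 24.6 and 31.2 TPM in the higher-Msx1 libraries. The lower-Msx1 library of litter 3, labelled control, stood above the other 5. Lhx8 (chromosome 3, 154306294 to 154330659) was at 34.2, 33.6 and 37.6 TPM in the lower-Msx1 libraries and 39.2, 32.8 and 43.7 TPM in the higher-Msx1 libraries, which overlapped. In the authors' deposited table the log2 fold changes were 0.03 ± 0.17 for Lhx6 and -0.13 ± 0.17 for Lhx8 (with the table's standard errors; unadjusted p = 0.877 and 0.466). The ratio of Lhx6 to Lhx8 TPM was between 0.687 and 0.750 in 5 libraries and 1.10 in the lower-Msx1 library of litter 3.

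Pax9, a paired-box gene needed in mouse for teeth to pass the bud stage (chromosome 12, 56691767 to 56712822), was low and the steadiest of the 8. It was at 3.61, 4.52 and 4.66 TPM in the lower-Msx1 libraries of litters 1, 2 and 3 and 3.75, 4.03 and 4.21 TPM in the higher-Msx1 libraries. The groups overlapped, and the highest library exceeded the lowest by a factor of 1.29. The log2 fold change in the authors' deposited table was 0.09 ± 0.28 (with the table's standard error; unadjusted p = 0.756). Pax9 overlaps Slc25a21, on the opposite strand, in the GENCODE annotation. Slc25a21 was at 0.514 to 1.58 TPM, and the sources used here do not say whether reads were assigned by strand. Pitx1, Osr1 and Lhx6 overlap annotated noncoding genes, which were not analysed here.

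Osr1 and Osr2 encode odd-skipped zinc finger factors, and Osr2 is known in the mouse for confining molars to their row in opposition to Bmp4 and Msx1. Osr1 (chromosome 12, 9570116 to 9581500) was at 63.4, 65.0 and 80.5 TPM in the lower-Msx1 libraries of litters 1, 2 and 3 and 54.5, 54.9 and 83.2 TPM in the higher-Msx1 libraries. Both libraries of litter 3 were above all those of litters 1 and 2, whatever their Msx1. Osr2 (chromosome 15, 35296098 to 35303305) was at 2.60, 1.07 and 1.41 TPM in the lower-Msx1 libraries and 1.33, 2.18 and 6.20 TPM in the higher-Msx1 libraries. Osr2 was the most variable of the 8, with a ratio of 5.79 between its highest and lowest library. In the authors' deposited table the log2 fold changes were 0.14 ± 0.16 for Osr1 and -0.77 ± 0.82 for Osr2 (with the table's standard errors; unadjusted p = 0.406 and 0.349), with base means of 759 and 22.5 normalised counts.

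Nkx3-2, a homeobox gene of the future jaw joint (chromosome 5, 41761483 to 41764501), lies 3.94 Mb from Msx1 on the same chromosome. It was at 1.64, 3.41 and 2.01 TPM in the lower-Msx1 libraries of litters 1, 2 and 3 and 1.71, 3.56 and 1.04 TPM in the higher-Msx1 libraries. Both libraries of litter 2 were the highest, and the groups overlapped. The log2 fold change in the authors' deposited table was 0.26 ± 0.95 (with the table's standard error; unadjusted p = 0.784), on a base mean of 12.8 normalised counts. That standard error exceeds the fold change itself, and the highest library exceeded the lowest by a factor of 3.43.

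By the labels as deposited, Osr2 was the one gene of the 8 that separated. In litters 1, 2 and 3 the libraries labelled mutant had 2.60, 2.18 and 6.20 TPM and those labelled control 1.33, 1.07 and 1.41 TPM, with no overlap. The means were 3.66 ± 2.21 TPM in the libraries labelled mutant and 1.27 ± 0.18 TPM in the libraries labelled control (SD, n = 3 each). Among all tested genes, 2.73% had the 3 libraries labelled mutant above the 3 labelled control, and 13.1% had no overlap in either direction. The 1 of 8 seen here is near that share. The limma difference of log2(TPM + 1) was 0.94 ± 0.30 (SE; 95% interval 0.24 to 1.65; unadjusted p = 0.0152, adjusted p = 0.686), a p at rank 267, and it was higher in 3 of 3 litters. The label runs against Msx1 in litters 2 and 3, so this difference has no direction relative to Msx1.

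None of the 8 genes was called by label with limma, and 0 of 12152 genes were called in all (0%), while 817 (6.72%) had an unadjusted p under 0.05. Their differences were positive for 231 and negative for 586, a split of 408 and 310 after median-of-ratios scaling. The differences of the other 7 genes were between -0.21 and 0.04, with adjusted p from 0.815 to 0.996. For Barx1, which averaged 251 ± 26.6 TPM in the libraries labelled mutant and 263 ± 61.1 TPM in those labelled control (SD, n = 3 each), the difference was -0.04 with a 95% interval of -0.45 to 0.36 (limma adjusted p = 0.962). For Lhx6 it was -0.21 with an interval of -0.67 to 0.25 (limma adjusted p = 0.815), and -0.0002 without the library labelled control of litter 3.

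**Figure D3:**
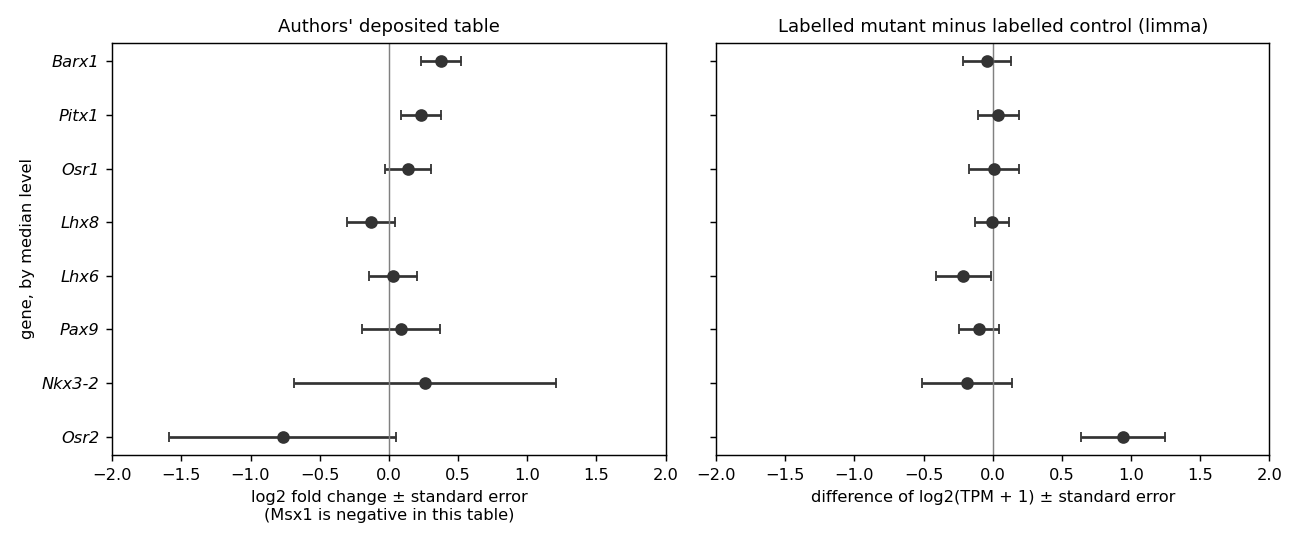
Log2 fold change with its standard error in the authors' deposited table (left) and difference of log2(TPM + 1) with its standard error between libraries labelled mutant and labelled control from limma (right), for each gene by median level. The panels compare different groupings, since Msx1 is at -5.19 in the authors' table and at 1.41 by label. Barx1 is at 0.38 on the left, and Osr2 is at 0.94 on the right.

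Levels were also compared between litters, with 2 libraries per litter and no test. Taking the mean log2(TPM + 1) of the 2 littermates, litter 3 was the highest of the 3 litters for 7 of the 8 genes, all but Nkx3-2, for which litter 2 was the highest. For Osr2 this rested on 1 library, at 6.20 TPM beside 1.41 TPM in its littermate. For Pax9 the means of litters 3 and 2 were close, at 2.44 and 2.40. Of all tested genes, 39.2% were highest in litter 3, and after median-of-ratios scaling 35.0% were, with the count of the 8 genes still at 7. For 5 of the 8 genes the litter means spanned more than the widest gap between littermates, which held for 22.8% of all tested genes. For Lhx6 the litter means spanned 0.55 and the widest gap was 0.39 on the log2 scale, and for Osr1 the values were 0.47 and 0.24. For Barx1 the order was the other way, with litter means spanning 0.29 and a widest gap between littermates of 0.50. The labels do not say whether litters differed in stage or in the day of dissection, and what moved with litter was not tested.

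**Figure D4:**
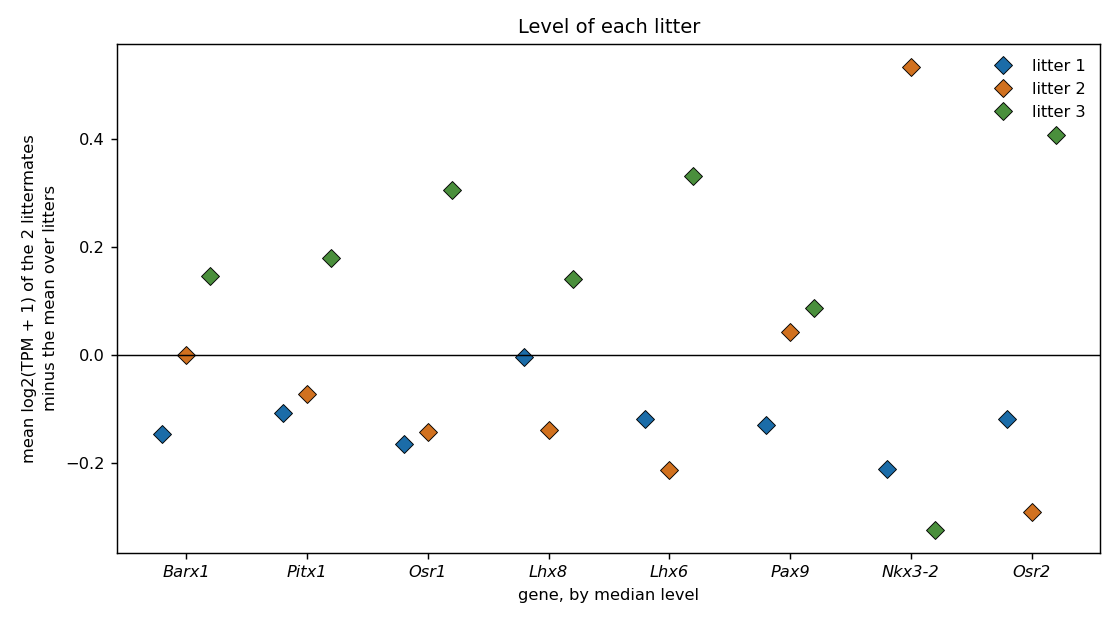
Mean log2(TPM + 1) of the 2 littermates minus the mean over the 3 litters (vertical axis) for each gene by median level, with litters in colour. Litter 3 is the highest of the litters for 7 genes, and Nkx3-2 is highest in litter 2.

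Of the 8 genes, 6 were positive and 2 (Lhx8 and Osr2) negative in the authors' deposited table. Their median on the log2 scale was 0.11, beside a median of 0.003 and 50.7% positive over all genes with an adjusted p. Within litters, 4, 5 and 5 of the 8 genes were higher in the lower-Msx1 library of litters 1, 2 and 3, and the median difference was 0.09, 0.06 and 0.16. Of all 12152 tested genes, 4358, 6261 and 7398 were higher in the lower-Msx1 library of the same litters. Their medians were -0.09, 0.007 and 0.08.

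Of 34 further genes of tooth and oral development, 13 were positive and 21 negative in the authors' deposited table. Their median on the log2 scale was -0.10, and none was past the adjusted threshold. Transcription factors of jaw and dental mesenchyme were negative in 8 of 10 (median -0.14), and the difference between this list and the 8 genes was not tested. Ligands and secreted antagonists were positive in 6 of 12, receptors in 2 of 5, and factors of oral and dental epithelium in 3 of 7. The one gene with an unadjusted p under 0.05 was the FGF receptor gene Fgfr1, at 0.50 ± 0.15 (with the table's standard error; unadjusted p = 0.00115, adjusted p = 0.491) in the authors' deposited table. Fgfr1 was at 33.9, 35.9 and 52.0 TPM in the lower-Msx1 libraries of litters 1, 2 and 3 and 30.3, 24.7 and 30.1 TPM in the higher-Msx1 libraries, with no overlap.

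The genes whose profiles over the 6 libraries were nearest to those of the 2 most variable members were found by the root mean square difference of log2(TPM + 1), each profile centred on its mean. For Osr2 they were Mylpf, a myosin light chain gene of skeletal muscle, Hist1h4n, a histone gene, and Wdr83, at 0.21, 0.22 and 0.23. For Nkx3-2 they were Sphk1, which encodes a sphingosine kinase, Lmbr1l and D1Ertd622e, at 0.11, 0.15 and 0.15. Mylpf was at 4.95, 2.53 and 3.85 TPM in the lower-Msx1 libraries of litters 1, 2 and 3 and 3.93, 3.77 and 9.32 TPM in the higher-Msx1 libraries, and like Osr2 it was highest in the higher-Msx1 library of litter 3. These genes were picked from 12152 by closeness over 6 libraries, and their likeness is a description.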

How the data were processed

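Polyadenylated RNA of 6 distal mandibles, 1 embryo each, was measured. The authors deposited TPM per gene and library for 21827 genes, per the file headers; per the submitters' processing notes, Salmon 1.5.2, DESeq2 and the mm10 build were used, in roles not stated. TPM keep no depth. The deposited table of the authors holds, per the file headers, a base mean (a signal of normalised counts), a log2 fold change, its standard error and a Wald statistic (both entered as score), and a p-value and adjusted p-value. For the annotation release, strand setting and model, the sources used here give nothing. The direction of the fold change is not stated there.

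The 12152 genes that reached 1 TPM in 3 or more libraries were fitted by label with limma 3.58.1 in R 4.3.3 (variance trend, robust moderation) on log2(TPM + 1), a scale that understates the change of low genes, with Benjamini-Hochberg adjustment over all genes and a threshold of 0.05. The fit was tested on simulated data. Within-litter differences were computed in Python 3.11.15 and not tested, because grouping by Msx1 would replace the labels with a measured value. P-values rest on 3 embryos per label. Litter pairs the libraries, since the design text takes both embryos of a pair from 1 litter; deviations of littermates from their label means correlated at -0.05, -0.03 and -0.03 over genes. Coordinates come from GENCODE M21 (GRCm38) and promoters from RefSeq (GRCm38.p6).

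The 8 genes, the further lists and the tests were chosen with earlier results of these data known. Named genes were all 8, Msx1, Msx2 and Hand2, further list genes with an unadjusted p under 0.05 in the authors' table, and the 3 nearest profiles of the 2 most variable members. Alternatives were a pseudocount of 0.1, no filter, median-of-ratios scaling, litter as a block, and leaving out each library or litter.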

Additional observations from a re-analysis of the deposited data

How the results depend on the processing

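By label, 0 of the 8 genes were called under every setting run. Each label holds lower- and higher-Msx1 libraries, so the counts by label cannot show whether a gene changed with Msx1. Over all genes 0 were higher and 0 lower, except when single libraries of litter 1 were left out. Over the 6 left-out libraries the counts ranged from 0 to 1 higher and from 0 to 1 lower. The calls were Gm5244, higher when the labelled control of litter 1 was left out, and Rpl29, lower when its littermate was. With the replicate block (litter as a paired term) the counts were 0, 0 and 0, and no call changed. At an unadjusted p under 0.05 the split was 231 higher and 586 lower genes, and 408 and 310 after median-of-ratios scaling. Over 80 values of the 8 genes under alternatives, the smallest limma adjusted p was 0.449. Of these, 15 changed sign, in 5 genes. Scaling gave Barx1 0.028 and Lhx8 0.064. Leaving out each library gave -0.10 to 0.19 for Pitx1, -0.25 to 0.079 for Barx1, -0.13 to 0.073 for Lhx8, -0.16 to 0.15 for Osr1 and -0.51 to 0.073 for Nkx3-2, so none of these has a settled direction by label. Lhx6 ran from -0.38 to -0.0002 and Pax9 from -0.18 to -0.05. Osr2 stayed positive, from 0.58 to 1.17 over the left-out libraries and at 1.31 with a pseudocount of 0.1, and was uncalled throughout.

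The 2 genes with one direction in all litters became 3 after scaling, when Pax9 joined at 0.04, 0.13 and 0.04, beside 24.6% of all tested genes with one direction after scaling. Without litter 1, 2 or 3 the counts were 4, 3 and 5 of 8, beside 51.5%, 43.4% and 50.3% of all tested genes, since fewer litters must then share a direction. The median within-litter difference of 0.10 was 0.058 to 0.160 when a litter was left out, and 0.058 after median-of-ratios scaling. Osr2 and Nkx3-2 had base means of 22.5 and 12.8 normalised counts in the authors' deposited table; counting error and differences between embryos were not told apart.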
